A study of Mus musculus with 12 samples.

Results

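The 10 genes described here are a set of regulatory T cell and costimulatory receptor genes: Foxp3, Il2ra, Ikzf2, Tnfrsf4, Tnfrsf9, Tnfrsf18, Ccr8, Il10, Lrrc32 and Icos. They were taken by symbol from a table of counts for 55401 Ensembl genes, each symbol matching 1 gene, and all 10 passed the filter on low counts that kept 20818 genes. The RNA came from 12 tumors grown under the skin of mice from 125000 TC2Ras cells, a mouse prostate cancer line driven by Ras. The 4 groups of 3 tumors were Control (0 ppb inorganic arsenic, iAs, and no added cells), ASC (1% adipose stromal cells mixed with the cancer cells, 0 ppb iAs), As300 (300 ppb iAs in the drinking water, no added cells) and ASC_As300 (both). All mice had been on low-arsenic chow and purified water for 2 weeks before implantation, and all tumors were taken on day 21, with the tumors of both flanks of a mouse combined. The ASC came from male transgenic donor mice on a C57BL/6 background, so every ASC and ASC_As300 tumor received transgenic cells. Strain, sex and age of the host mice are not given in the sources used here. The sample labels call the material stromal cells, whereas the methods of the study describe excised tumors, and marker genes of fibroblasts, macrophages, endothelial cells and T cells had counts in each library. The question asked of these genes is whether ASC, iAs or both changed the level of regulatory T cell and costimulatory transcripts in the tumor.

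Regulatory T cells restrain other lymphocytes. Their identity rests on the transcription factor FOXP3, and they carry much of the high-affinity interleukin 2 receptor chain encoded by Il2ra, by which they take up interleukin 2 made by other T cells. OX40 (Tnfrsf4), 4-1BB (Tnfrsf9), GITR (Tnfrsf18) and ICOS are costimulatory receptors: they appear or increase on activated T cells of several kinds, are high on regulatory T cells inside tumors, and are engaged by ligands on antigen-presenting cells. Members of the TNF receptor family signal through TRAF adaptors to NF-kB, ICOS through phosphoinositide 3-kinase, and the interleukin 2 receptor through JAK kinases and STAT5. In a bulk tumor, fewer cells of a type and less RNA per cell cannot be told apart, and several of these genes are also used outside T cells, for example Lrrc32 in platelets and endothelium.

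By the GENCODE annotation of GRCm38, Foxp3 lies on chromosome X at 7573644 to 7595245, Il2ra on chromosome 2 at 11642807 to 11693193, and Ccr8 on chromosome 9 at 120092114 to 120094906. The receptors of the TNF family share chromosome 4, with Tnfrsf9 at 150914562 to 150946102, Tnfrsf4 at 156013843 to 156016612 and Tnfrsf18 at 156026164 to 156028895. Tnfrsf4 and Tnfrsf18 are 9551 bases apart with 2 annotated genes between them. Chromosome 1 carries Icos at 60977927 to 61000320, Ikzf2 at 69531214 to 69687245 and Il10 at 131019845 to 131024974, and Lrrc32 lies on chromosome 7 at 98489283 to 98502181. Exons of Foxp3 share 590 bases with Ccdc22, 373 with Gm36995 and 266 with Ppp1r3f on the opposite strand, and Ccdc22 had 1289 to 2530 counts in each tumor, many more than Foxp3. Foxp3 also shares 853 exon bases with Flicr on its own strand (5 to 50 counts). The library kit marks strand, but whether the counting used it is not stated, so the split of reads between Foxp3 and these neighbours is uncertain. The same holds for Tnfrsf18, which shares 414 exon bases with Gm16008 on the opposite strand (35 to 98 counts), and Ikzf2, which shares 144 with Gm29114 (0 to 4 counts).

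RefSeq promoter windows on GRCm38.p6, from 250 bases before to 50 bases after a transcription start, were at hand for 6 of the 10 genes, as 8 windows. They were searched on both strands for the GAS pattern of STAT factors (TTCNNNGAA), the ISRE pattern of interferon-activated factors (GAAANNGAAA) and the NF-kB pattern, since the receptors signal to or are known targets of these factors. The 4 windows that held a match, one for each of 4 genes, are shown 5′ to 3′ in the direction of the gene, with the matches in capitals.
Foxp3, chrX:7580233-7580532, plus strand: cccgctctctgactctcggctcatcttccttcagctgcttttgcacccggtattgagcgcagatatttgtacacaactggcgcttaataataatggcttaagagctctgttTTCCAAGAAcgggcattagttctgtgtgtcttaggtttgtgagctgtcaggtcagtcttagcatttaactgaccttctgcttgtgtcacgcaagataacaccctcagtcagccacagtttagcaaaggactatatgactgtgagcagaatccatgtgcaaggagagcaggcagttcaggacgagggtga
Tnfrsf18, chr4:156026072-156026371, plus strand: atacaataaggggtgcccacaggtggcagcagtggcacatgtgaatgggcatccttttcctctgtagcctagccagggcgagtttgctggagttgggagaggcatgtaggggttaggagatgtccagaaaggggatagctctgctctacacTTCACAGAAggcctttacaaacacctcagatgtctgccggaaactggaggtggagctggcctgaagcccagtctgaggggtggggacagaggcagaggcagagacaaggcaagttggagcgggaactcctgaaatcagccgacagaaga
Tnfrsf9, chr4:150927749-150928048, plus strand: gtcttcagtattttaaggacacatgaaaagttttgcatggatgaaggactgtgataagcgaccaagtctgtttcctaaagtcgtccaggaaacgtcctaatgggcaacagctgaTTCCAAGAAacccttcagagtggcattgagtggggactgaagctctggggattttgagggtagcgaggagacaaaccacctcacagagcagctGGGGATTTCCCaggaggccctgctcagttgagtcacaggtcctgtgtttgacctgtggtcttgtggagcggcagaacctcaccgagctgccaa
Il2ra, chr2:11642542-11642841, plus strand: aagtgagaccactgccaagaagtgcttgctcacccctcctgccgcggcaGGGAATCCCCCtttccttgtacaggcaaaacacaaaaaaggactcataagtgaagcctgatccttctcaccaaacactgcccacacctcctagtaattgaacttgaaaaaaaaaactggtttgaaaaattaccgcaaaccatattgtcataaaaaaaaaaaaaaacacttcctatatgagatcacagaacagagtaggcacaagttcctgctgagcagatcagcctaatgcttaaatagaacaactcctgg

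The Foxp3, Tnfrsf18 and Tnfrsf9 windows each held 1 GAS match, a pattern found in 8.30% of the 32851 windows of the reference. The Tnfrsf9 and Il2ra windows each held NF-kB matches that overlap one another, a pattern found in 8.46% of all windows. None of the 8 windows held the ISRE pattern, present in 3.44% of all windows. The second windows of Foxp3 and of Tnfrsf9 and those of Tnfrsf4 and Ccr8 held none of the 3 patterns. A match is a run of letters and says nothing of binding in these tumors.

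Total counts ran from 39157647 to 55168642 per tumor, and levels are given as CPM, the counts set to a common library size after TMM scaling. Multiples of 4 were over-represented among small counts, and it is not stated what 1 count represents, so a floor of 12 counts was used. Of the 13 genes of a T cell list, only Cd8a was called higher with ASC over both iAs levels, beside 1.45% of all genes called. Cd4 was among those not called. Without Control replicate 1, 10 of the 13 were called higher, and the share of all genes called without that tumor is not given here. The summed level of the T cell receptor complex (Cd3d, Cd3e, Cd3g and Cd247) was 16.3 to 24.9 CPM in ASC tumors, 14.3 to 21.1 CPM in ASC_As300 tumors and 3.85 to 5.16 CPM in As300 tumors. Control replicate 1 stood apart from the other Control tumors. Its T cell receptor complex sum was 25.6 CPM against 4.18 and 2.97 CPM, its sum over 12 B cell and lymph node genes was 291.8 CPM against 5.26 to 21.0 CPM in the other 11 tumors, and its sum over 7 epithelial genes was 361.9 CPM against 25.9 to 118 CPM. No gene of the B cell list was at 0 in that tumor, as was also so in Control replicate 2 and ASC replicate 2. The part of lymphoid tissue in the values of this tumor was not tested, and values without it are given for the 4 members that were highest in it and for named calls that changed without it. The plot of marker lists by tumor shows these sums.

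**Figure D1:**
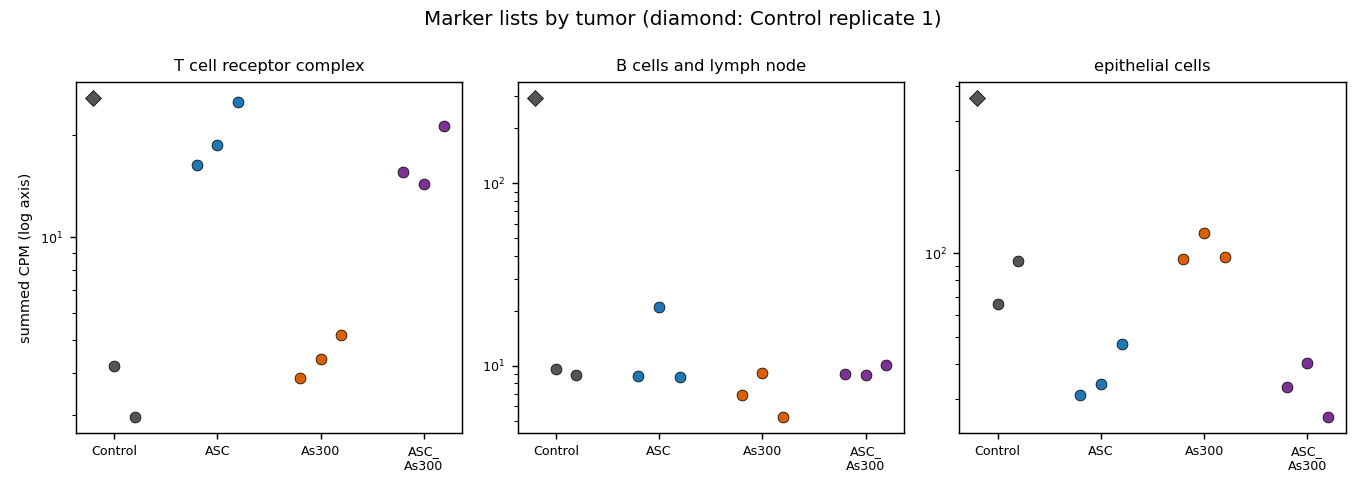
Summed CPM (log axis) of the T cell receptor complex, B cell and lymph node, and epithelial lists in each tumor, by group; the diamond is Control replicate 1. The T cell receptor complex lies at 14.3 CPM or above in all 6 tumors with ASC and in Control replicate 1, and at 5.16 CPM or below in the other 5 tumors.

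Per kilobase of exon, the 10 genes spanned a wide range of levels over the 12 tumors. Tnfrsf9 was the most abundant, at 13.8 ± 2.40 CPM per kb (SD, n = 12), and its lowest tumor, 9.71, lay above the highest tumor of every other member. Lrrc32 followed at 3.99 ± 0.566, Tnfrsf4 at 2.91 ± 0.686 and Tnfrsf18 at 2.37 ± 0.485 CPM per kb, and the range of each overlapped that of the next. The other 6 genes formed a lower tier, none reaching the lowest Tnfrsf18 tumor (1.48 CPM per kb). In that tier Il10 (0.558 ± 0.285), Icos (0.549 ± 0.263) and Foxp3 (0.547 ± 0.219) were alike in mean, Il2ra was at 0.413 ± 0.160, Ccr8 at 0.271 ± 0.217 and Ikzf2 at 0.150 ± 0.0607 CPM per kb, with overlapping ranges between neighbours. Counts were thin at the bottom. Ccr8 had 0 to 39 counts and lay at or under the floor of 12 counts in 6 of 12 tumors, Il10 in 1 of 12, and the other 8 genes in none.

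No member was called in any of the 8 comparisons by edgeR's quasi-likelihood test (adjusted p under 0.05 over all 20818 genes and at least a 1.5-fold change). Among all genes the share called was 0.721% for ASC against Control, 1.06% for As300 against Control, 0.807% for ASC_As300 against Control, 0.855% for ASC_As300 against As300 and 1.45% for the ASC effect (the mean of the ASC differences at 0 and 300 ppb iAs). It was 0% for ASC_As300 against ASC, 0% for the iAs effect (the same mean for iAs, without and with ASC) and 0% for the interaction. Without Control replicate 1 the count over all genes in As300 against Control was 0. With rates this low, 0 of 10 is near the background. At an unadjusted p under 0.05 there was 1 member in ASC against Control (15.4% of all genes), 1 in As300 against Control (24.1%), 0 in ASC_As300 against Control (15.2%), 0 in ASC_As300 against ASC (3.21%), 3 in ASC_As300 against As300 (9.98%), 4 in the ASC effect (10.9%; Tnfrsf9, Tnfrsf18, Il10 and Icos), 1 in the iAs effect (16.0%; Tnfrsf9) and 1 in the interaction (13.6%; Icos). DESeq2's Wald test called 1 member, Icos, in As300 against Control, and 0 in the other 7 comparisons. Of the genes with an adjusted p it called 5.07% in As300 against Control, 3.18% in ASC against Control, 2.53% in ASC_As300 against Control, 0.0353% in ASC_As300 against ASC, 1.82% in ASC_As300 against As300, 2.11% in the ASC effect, 0.771% in the iAs effect and 1.04% in the interaction. The 1 member of 10 is near that background.

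The median log2 fold change of the 10 members in the ASC effect was 0.37, with 8 of 10 above 0, beside a median of -0.004 over all genes tested. In the iAs effect the median was -0.13, with 7 of 10 below 0, beside -0.02 over all genes. The 3 comparisons against Control share the Control tumors, and their values are not independent of each other. A set of 4 members, Foxp3, Il2ra, Ikzf2 and Icos, had their highest level of all 12 tumors in Control replicate 1, at 1.79 to 2.25 times the median of the other 11 tumors. The other 6 members did not peak there, and lay between 0.702 and 1.95 times that median.

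**Figure D2:**
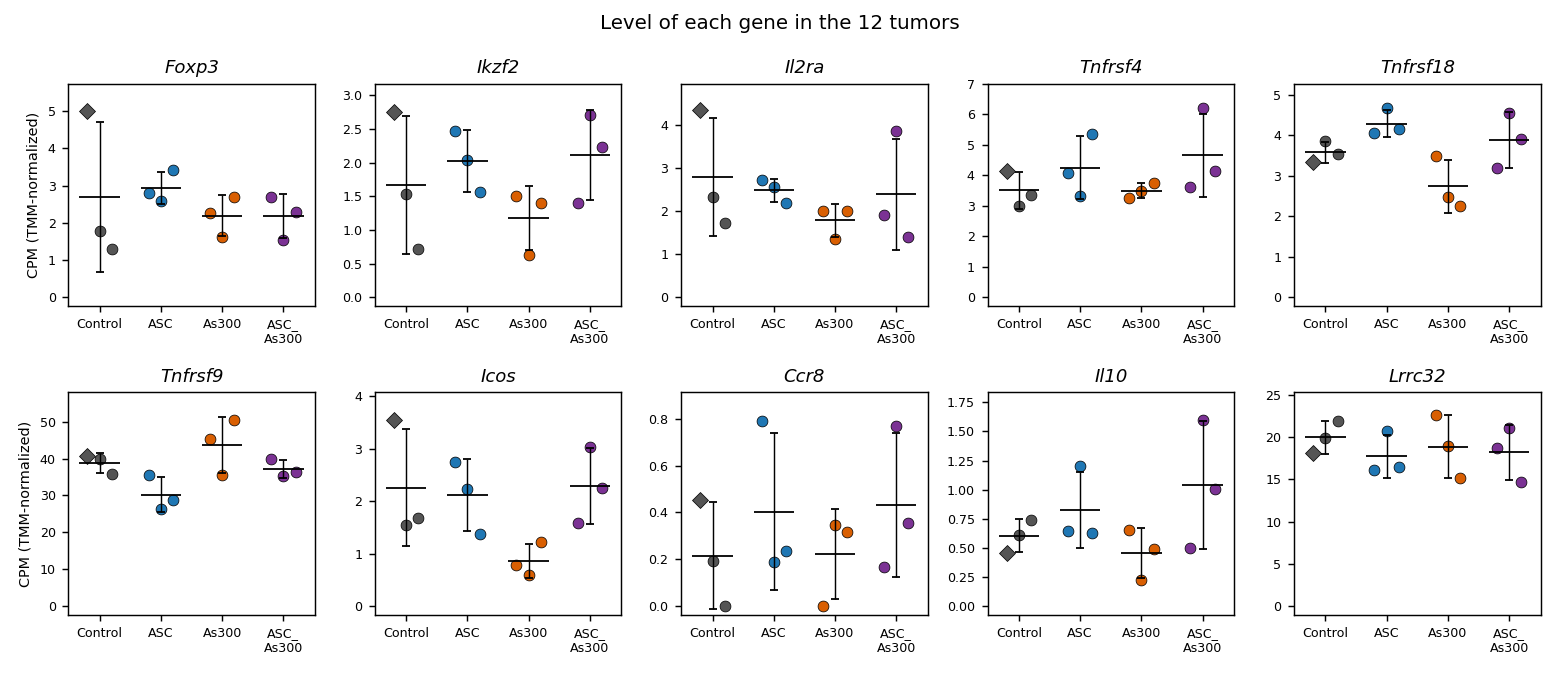
CPM of each of the 10 genes in the 12 tumors, by group; points are tumors, the horizontal line is the mean, bars are ± 1 SD (n = 3), and the diamond is Control replicate 1. Icos in the 3 As300 tumors lies below all 3 Control and all 3 ASC_As300 tumors, and Foxp3 overlaps between all groups.

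Foxp3, the factor that defines regulatory T cells, was low and overlapped between all groups. It was measured at 5.0, 1.78 and 1.30 CPM in the Control tumors, at 2.81, 2.60 and 3.43 CPM in the ASC tumors, at 2.25, 1.62 and 2.70 CPM in the As300 tumors, and at 2.70, 1.54 and 2.29 CPM in the ASC_As300 tumors. Control tumors held both the highest and the lowest of the 12 values. The ASC effect over both iAs levels was 0.06 on the log2 scale (SE 0.31, 95% interval -0.62 to 0.74, adjusted p = 0.972) and the iAs effect was -0.37 (SE 0.31, interval -1.04 to 0.31, adjusted p = 0.603). These intervals leave room for a rise or a fall of 1.5-fold with ASC. In ASC against Control, Foxp3 differed by 0.13 (adjusted p = 0.928) with all tumors and by 0.94 (adjusted p = 0.245) without Control replicate 1, when the 3 ASC tumors all lay above the remaining Control tumors. Without that tumor the difference turned from -0.30 to 0.52 in As300 against Control and from -0.31 to 0.50 in ASC_As300 against Control, with adjusted p = 0.423 and 0.538.

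Ikzf2, which encodes Helios, a zinc finger factor of many regulatory T cells, was at 2.75, 1.54 and 0.716 CPM in the Control tumors and at 2.47, 2.04 and 1.56 CPM in the ASC tumors. In the As300 tumors it was at 1.5, 0.634 and 1.39 CPM and in the ASC_As300 tumors at 1.40, 2.71 and 2.24 CPM. The groups overlapped in each comparison made. The ASC tumors lay above the As300 tumors, as they did for Il2ra, Tnfrsf18 and Icos. That pair of groups differs in both ASC and iAs and was not among the comparisons. Its share over all genes is not given, so no result is drawn from it. The ASC effect was 0.56 (SE 0.34, interval -0.17 to 1.30, adjusted p = 0.613), or 0.84 without Control replicate 1 (adjusted p = 0.304), and the iAs effect was -0.22 (SE 0.34, adjusted p = 0.795), or 0.07 without that tumor (adjusted p = 0.949).

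Il2ra, the alpha chain that raises the affinity of the interleukin 2 receptor, was at 4.34, 2.32 and 1.71 CPM in the Control tumors and at 2.71, 2.55 and 2.19 CPM in the ASC tumors. It was at 2.0, 1.35 and 2.0 CPM in the As300 tumors and at 1.90, 3.85 and 1.40 CPM in the ASC_As300 tumors. The Control and ASC_As300 groups each had 1 tumor well above its other 2. The ASC effect was 0.13 (SE 0.29, interval -0.51 to 0.76, adjusted p = 0.934) and the iAs effect -0.35 (SE 0.29, interval -0.99 to 0.28, adjusted p = 0.593). Without Control replicate 1 they were 0.36 (adjusted p = 0.711) and -0.11 (adjusted p = 0.892), and the differences turned from -0.17 to 0.31 in ASC against Control and from -0.23 to 0.25 in ASC_As300 against Control. Il2rb, the beta chain shared with the interleukin 15 receptor, was at 29.8 to 42.0 CPM in ASC tumors and 30.5 to 39.9 CPM in ASC_As300 tumors, against 10.2 to 20.2 CPM in Control and 6.53 to 11.8 CPM in As300 tumors. Every tumor with ASC lay above every tumor without, and Il2rb rose by 1.74 on the log2 scale in the ASC effect (SE 0.21, adjusted p = 0.000367), a call that held whichever tumor was left out. It also rose in ASC_As300 against As300 (2.10, adjusted p = 0.00295), in ASC against Control (1.38, adjusted p = 0.0495) and in ASC_As300 against Control (1.41, adjusted p = 0.0382). The call in ASC against Control held in only 3 of the 12 repeats that leave out 1 tumor (Control replicate 1, ASC replicate 1 or As300 replicate 3), and that in ASC_As300 against Control in 6 of 12, being lost without Control replicate 2 or 3, ASC replicate 1 or any 1 of the ASC_As300 tumors. Il2rg, the chain common to several cytokine receptors, had an ASC effect of 0.61 (adjusted p = 0.129), which passed the threshold without Control replicate 1 (0.83, adjusted p = 0.00079). Il2, the cytokine itself, had at most 5 counts in any tumor and was not tested.

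None of the 3 costimulatory receptors of the TNF family was called in any comparison, and differences between them were not tested. Tnfrsf4 (OX40) was at 4.15, 2.99 and 3.36 CPM in the Control tumors, 4.07, 3.32 and 5.36 CPM in the ASC tumors, 3.25, 3.50 and 3.74 CPM in the As300 tumors and 3.63, 6.20 and 4.15 CPM in the ASC_As300 tumors. The highest values, ASC replicate 3 and ASC_As300 replicate 2, were both in tumors with ASC, but the groups overlapped. Its ASC effect was 0.35 (SE 0.18, interval -0.05 to 0.74, adjusted p = 0.541) and its iAs effect 0.07 (SE 0.18, adjusted p = 0.898). Its ligand Tnfsf4 (OX40L) was at 0.15 to 1.05 CPM, with an ASC effect of 0.85 (SE 0.56, adjusted p = 0.655). Its counts ran from 7 to 46. They lay at or under the floor of 12 in Control replicates 2 and 3, ASC replicate 1 and As300 replicates 1 and 2.

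Tnfrsf18 (GITR) was at 3.33, 3.86 and 3.54 CPM in the Control tumors and at 4.05, 4.66 and 4.15 CPM in the ASC tumors, which did not overlap. It was at 3.48, 2.47 and 2.26 CPM in the As300 tumors and at 3.18, 4.54 and 3.92 CPM in the ASC_As300 tumors, which overlapped. Tnfrsf18 and Tnfrsf9 were the 2 members whose ASC and Control tumors did not overlap, as for 19.0% of all genes. The ASC effect of Tnfrsf18 was 0.38 (SE 0.16, interval 0.03 to 0.73, adjusted p = 0.401), and its difference in ASC_As300 against As300 was 0.51 (SE 0.23, adjusted p = 0.494). Its iAs effect was -0.26 (SE 0.16, adjusted p = 0.450). Its ligand Tnfsf18 was at 0.12 to 0.98 CPM and not called in any comparison.

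Tnfrsf9 (4-1BB), the most abundant member, was at 40.6, 40.0 and 35.7 CPM in the Control tumors, 35.6, 26.4 and 28.7 CPM in the ASC tumors, 45.3, 35.5 and 50.5 CPM in the As300 tumors and 40.0, 35.2 and 36.3 CPM in the ASC_As300 tumors. The 3 ASC tumors lay below all Control tumors, the closest pair at 35.6 and 35.7 CPM. The ASC effect was -0.30 (SE 0.10, interval -0.51 to -0.09, adjusted p = 0.217), and the difference in ASC against Control -0.36 (SE 0.14, adjusted p = 0.243). The iAs effect was 0.24 (SE 0.10, interval 0.03 to 0.45, adjusted p = 0.271). All 12 repeats that leave out 1 tumor gave an ASC effect between -0.36 and -0.24. Its ligand Tnfsf9 was at 14.3 to 15.3 CPM in As300 tumors and 13.6 to 16.1 CPM in ASC_As300 tumors, above the 9.92 to 12.9 CPM of Control and 11.4 to 12.5 CPM of ASC tumors. The 6 tumors with iAs did not overlap with the 6 without, but its iAs effect of 0.31 (SE 0.09) did not pass the adjustment (adjusted p = 0.188). The share of all genes that separate this way is not given, and 16.0% of all genes had an unadjusted p under 0.05 in the iAs effect.

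Icos, a costimulator of the CD28 family on activated, follicular helper and regulatory T cells, was at 3.55, 1.55 and 1.67 CPM in the Control tumors, 2.75, 2.22 and 1.38 CPM in the ASC tumors, 0.776, 0.593 and 1.22 CPM in the As300 tumors and 1.58, 3.04 and 2.26 CPM in the ASC_As300 tumors. The 3 As300 tumors were the lowest 3 of the 12 and overlapped with no other group. In counts, As300 tumors had 31, 29 and 69, against 77 to 172 in Control tumors. Icos was the only member whose As300 and Control tumors did not overlap (29.9% of all genes) and the only one whose ASC_As300 and As300 tumors did not (19.7% of all genes). The difference in As300 against Control was -1.38 (SE 0.43, interval -2.33 to -0.44, adjusted p = 0.084), which is short of the threshold, while DESeq2's Wald test gave -1.36 with an adjusted p of 0.0229. Without Control replicate 1 the edgeR difference was -0.88 (adjusted p = 0.253), and DESeq2, in a fit added after the values were seen, called no member. In ASC_As300 against As300 it was 1.40 (SE 0.43, interval 0.46 to 2.35, adjusted p = 0.249), and 1.13 to 1.73 over the repeats that leave out 1 tumor. The interaction, which tests whether the ASC difference is the same with and without iAs, was 1.5 (SE 0.60, interval 0.19 to 2.81, adjusted p = 0.330), or 0.99 without Control replicate 1 (adjusted p = 0.452). Over both iAs levels the ASC effect of Icos was 0.66 (SE 0.30, interval 0.002 to 1.31, adjusted p = 0.457), or 0.90 without Control replicate 1 (adjusted p = 0.179). Its iAs effect was -0.63 (SE 0.30, interval -1.29 to 0.02, adjusted p = 0.329), or -0.38 without that tumor (adjusted p = 0.555). The difference turned from -0.09 to 0.40 in ASC against Control without it. The ligand gene Icosl was at 6.0 to 7.34 CPM in As300 tumors and at 7.50 to 9.98 CPM in tumors with ASC, with 3.95, 8.86 and 20.2 CPM in Control tumors, and was not called.

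**Figure D3:**
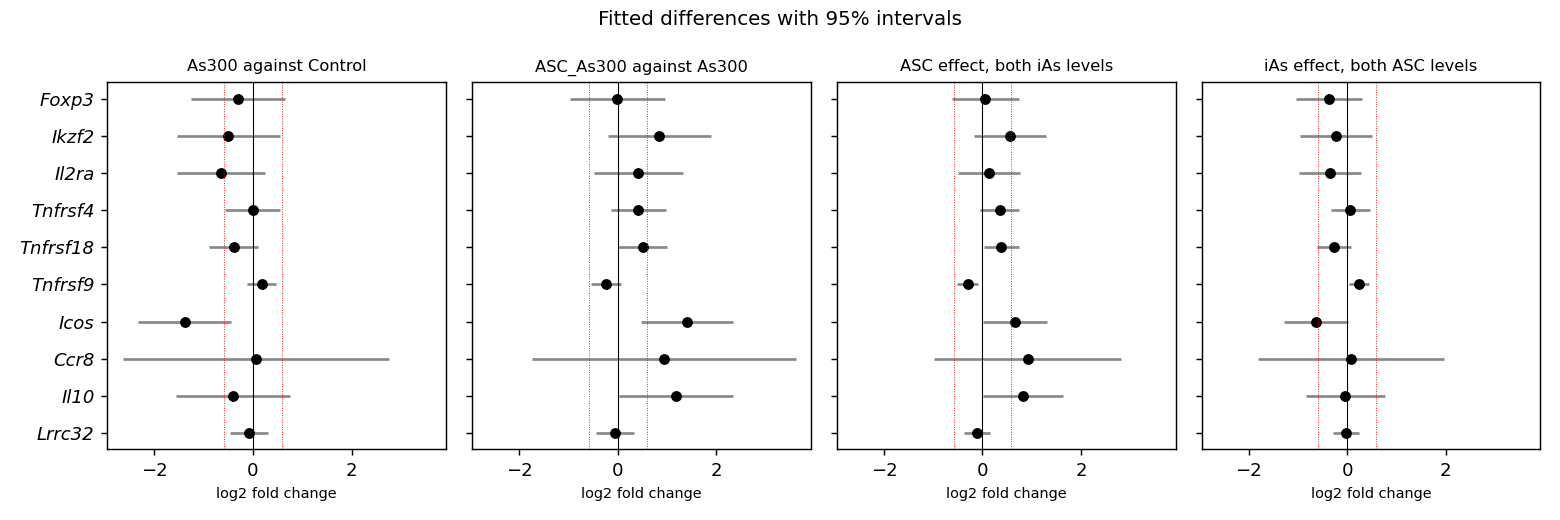
Log2 fold change of each gene (x axis) with its 95% interval in 4 comparisons; dotted lines mark a 1.5-fold change in either direction. Icos lies at -1.38 in As300 against Control and at 1.40 in ASC_As300 against As300, and the intervals of Ccr8 are the widest.

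Ccr8, a chemokine receptor of tumor regulatory T cells, was near the limit of these libraries. It had 22, 10 and 0 counts in the Control tumors, 39, 7 and 10 in the ASC tumors, 0, 17 and 18 in the As300 tumors and 9, 39 and 18 in the ASC_As300 tumors. Each group held at least 1 tumor at or under the floor. The ASC effect was 0.92 with an interval from -0.98 to 2.81 (SE 0.87, adjusted p = 0.789), and the iAs effect was 0.07 with an interval from -1.82 to 1.96 (adjusted p = 0.980), so a difference of either sign was not detectable at this depth. Of its ligands, Ccl1 had 0 to 39 counts and was not called. Ccl8, a chemokine of macrophages and fibroblasts, was at 69.9 to 134 CPM in ASC tumors and 60.7 to 98.4 CPM in ASC_As300 tumors, against 27.2 to 39.2 CPM in Control and 12.3 to 48.0 CPM in As300 tumors. All 6 tumors with ASC lay above all 6 without, and Ccl8 rose by 1.53 in the ASC effect (SE 0.29, adjusted p = 0.0140), with the call lost only without Control replicate 3 (adjusted p = 0.0501).

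Il10, an inhibitory cytokine made by regulatory T cells, macrophages and other leukocytes, was at 0.455, 0.614 and 0.738 CPM in the Control tumors and 0.648, 1.21 and 0.629 CPM in the ASC tumors. It was at 0.650, 0.225 and 0.494 CPM in the As300 tumors and 0.503, 1.60 and 1.01 CPM in the ASC_As300 tumors. The 3 highest values were in tumors with ASC, and the groups overlapped. The ASC effect was 0.82 (SE 0.38, interval 0.003 to 1.63, adjusted p = 0.457), and 0.59 to 0.98 when 1 tumor was left out. In ASC_As300 against As300 the difference was 1.18 (SE 0.53, adjusted p = 0.494) and moved to 0.71 when ASC_As300 replicate 2 was left out. Its iAs effect was -0.04 (SE 0.37, interval -0.84 to 0.77, adjusted p = 0.976). Il10ra, the ligand-binding chain of its receptor, rose in the ASC effect by 0.86 (SE 0.15, adjusted p = 0.00924), a call that held whichever tumor was left out. It was at 35.6 to 46.7 CPM in ASC and 34.2 to 43.4 CPM in ASC_As300 tumors, against 15.3 to 30.1 CPM in Control and 18.0 to 25.9 CPM in As300 tumors. Il10rb, the second chain, had an ASC effect of 0.15 (SE 0.07, adjusted p = 0.499).

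Lrrc32 encodes GARP, which holds latent TGF-beta on the cell surface. It was at 18.1, 19.9 and 22.0 CPM in the Control tumors, 16.1, 20.7 and 16.4 CPM in the ASC tumors, 22.6, 18.9 and 15.1 CPM in the As300 tumors and 18.7, 21.1 and 14.7 CPM in the ASC_As300 tumors. Relative to its mean over the 12 tumors, its SD was the smallest of the 10 genes. The ASC effect was -0.11 (SE 0.12, interval -0.38 to 0.16, adjusted p = 0.833) and the iAs effect -0.02 (SE 0.12, interval -0.29 to 0.25, adjusted p = 0.952), so these intervals hold no change as large as 1.5-fold. Per kilobase its lowest tumor lay above the highest tumors of Foxp3 and Icos, beside endothelial markers whose sum was 209 to 349 CPM and platelet markers whose sum was 44.7 to 77.7 CPM. The part of those cells in the Lrrc32 level was not tested. Tgfb1, the cytokine that GARP holds, was at 118 to 132 CPM in As300 tumors against 73.8 to 84.1 CPM in Control tumors, a rise of 0.63 (SE 0.08, adjusted p = 0.0356). That call held in 5 of the 12 repeats that leave out 1 tumor, namely those without any one of the 3 ASC tumors, As300 replicate 1 or ASC_As300 replicate 2, and without Control replicate 1 the difference was 0.66 (adjusted p = 0.066). Of the integrin chains that free TGF-beta, Itgav had an ASC effect of -0.06 (adjusted p = 0.843) and Itgb8 of -0.79 (SE 0.21, adjusted p = 0.109).

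Of 14 genes listed as ligands and cytokine partners, 13 were tested. In the ASC effect 3 were called higher (Il2rb, Il10ra and Ccl8) and 0 lower, with a median of 0.33. In As300 against Control 1 was called higher (Tgfb1) and 0 lower, and in the iAs effect 0 were called, with 2 at an unadjusted p under 0.05 (Tgfb1 and Tnfsf9).

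**Figure D4:**
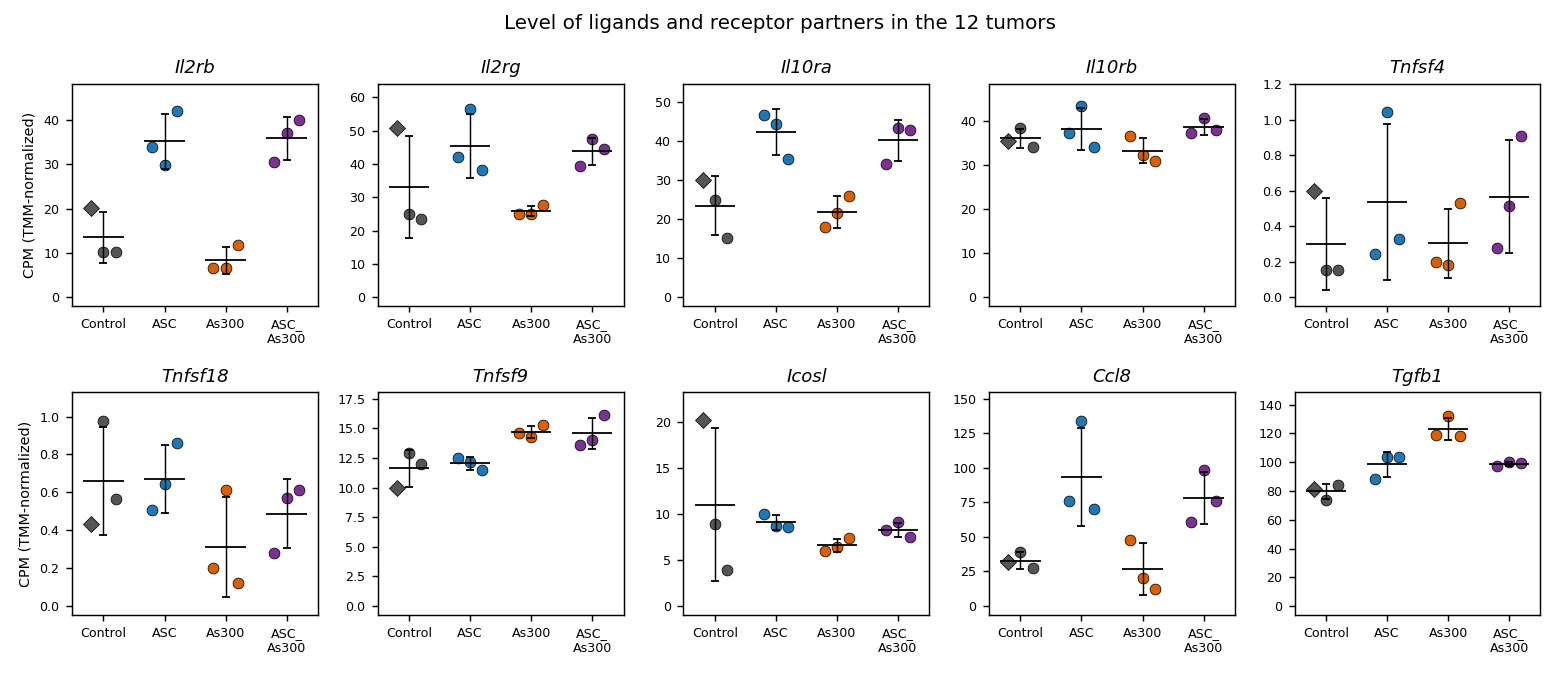
CPM of 10 ligand and receptor partner genes in the 12 tumors, by group; points are tumors, the line is the mean, bars are ± 1 SD (n = 3), and the diamond is Control replicate 1. Il2rb, Il10ra and Ccl8 lie higher in every tumor with ASC than in any tumor without, and Tgfb1 is highest in As300 tumors.

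The ratio of Foxp3 to the T cell receptor complex was lower in tumors with ASC. The ASC effect on Foxp3 itself was 0.06 (edgeR's quasi-likelihood test, adjusted p = 0.972). Per 100 counts of Cd3d, Cd3e, Cd3g and Cd247 there were 19.6, 42.7 and 43.8 Foxp3 counts in the Control tumors and 58.4, 36.9 and 52.4 in the As300 tumors. There were 17.2, 14.0 and 13.8 in the ASC tumors and 17.3, 10.8 and 10.9 in the ASC_As300 tumors. All 6 tumors with ASC lay below all 6 without, the nearest being Control replicate 1. The mean log2 ratio differed by -1.54 with ASC (exact two-sided permutation test of ASC labels within each iAs level, 400 arrangements, p = 0.005, the smallest they can give), and the difference was -1.73 without Control replicate 1. Set against all 13 T cell genes the difference was -0.69 (exact permutation test, p = 0.01), and the tumors overlapped, with 3.14 Foxp3 counts per 100 in ASC_As300 replicate 1 and 2.93 in Control replicate 3. With iAs the ratio to the complex differed by 0.15 (exact permutation test, p = 0.63). Set against Cd3e alone, tumors without ASC had 169 to 400 Foxp3 counts per 100, apart from 69.3 in Control replicate 1. Tumors with ASC had 32.6 to 70.9. As the split of reads between Foxp3 and its overlapping neighbours is uncertain, none of these ratios is a share of regulatory T cells. The complex had 695 to 1068 counts in tumors with ASC and 137 to 292 in those without, apart from 1237 in Control replicate 1. Its genes had ASC effects of 1.24 (Cd3d), 1.72 (Cd3e), 1.62 (Cd3g) and 0.77 (Cd247). None of them was called (edgeR's quasi-likelihood test, adjusted p = 0.129 to 0.602). The permutation test of the ratio takes in both Foxp3 and the complex, so it does not show a change of Foxp3 itself. The genes of the complex were also listed with earlier results of these data known, so its p-value is descriptive.

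The ratio depended on which T cell gene it was set against, a comparison added after the values were seen. Per 100 counts of Cd8a, the coreceptor of cytotoxic T cells, Foxp3 stood at 11 to 24.0 in tumors with ASC and at 31.7 to 171.7 in those without, a log2 difference of -2.37 (exact permutation test, p = 0.005). Per 100 counts of Cd4, the coreceptor of helper and regulatory T cells that macrophages may also express, it stood at 24.3 to 110.5 with ASC and at 23.1 to 62.5 without. That difference was 0.24 (exact permutation test, p = 0.585), of the opposite sign. Cd8a rose by 2.20 in the ASC effect (adjusted p = 0.0381), a call that held in 2 of the 12 repeats that leave out 1 tumor (Control replicate 1 or ASC_As300 replicate 2), and Cd4 differed by -0.11 (adjusted p = 0.938). As Cd8a itself rose with ASC and was picked after the values were seen, its ratio does not show a change of Foxp3. The ratios of the other 9 members to the complex, which were not tested, overlapped between tumors with and without ASC for all 9. Their medians were lower with ASC for all 9, for example 11.3 against 21.9 Icos counts and 195 against 967 Tnfrsf9 counts per 100 complex counts. All 9 ratios share the complex as denominator, so they are not 9 separate observations. On their own level Icos had an ASC effect of 0.66 and Tnfrsf9 of -0.30, neither called.

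**Figure D5:**
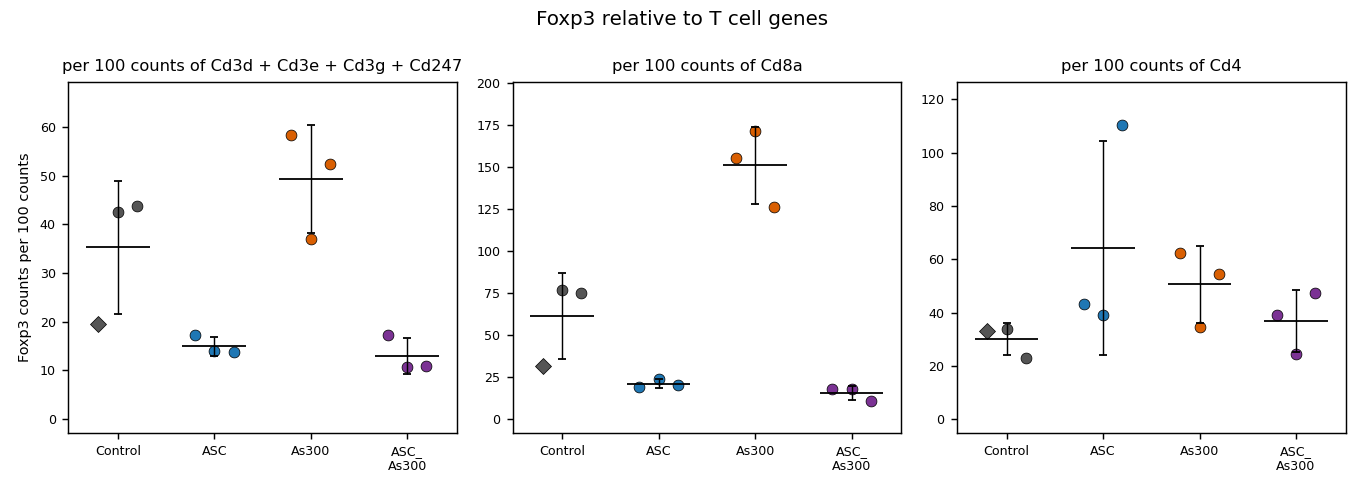
Foxp3 counts per 100 counts of the T cell receptor complex, of Cd8a and of Cd4 in each tumor, by group; points are tumors, the line is the mean, bars are ± 1 SD (n = 3), and the diamond is Control replicate 1. Against the complex and Cd8a all tumors with ASC lie below all tumors without, and against Cd4 the groups overlap.

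Among 18 other genes linked to regulatory T cells, 17 were tested, and 2 were called higher in the ASC effect, with 0 called lower and a median of 0.39. Il1rl1, the interleukin 33 receptor, which mast cells also carry, rose by 0.64 (adjusted p = 0.00649) and by 0.90 in ASC against Control (adjusted p = 0.0145). The first call was lost without Control replicate 1, where the change was 0.57 and under the 1.5-fold limit, and the second without Control replicate 3 or ASC replicate 3. Ebi3, a subunit of interleukins 27 and 35 that myeloid cells also make, rose by 0.74 (adjusted p = 0.0496), a call that held in 1 of the 12 repeats (without Control replicate 1). Ctla4, an inhibitory receptor that regulatory T cells hold at a high level, had an ASC effect of 1.04 (SE 0.25, adjusted p = 0.0574), which passed without Control replicate 1 (1.14, adjusted p = 0.0421) and by DESeq2. Entpd1 (CD39), an ectonucleotidase, had a small ASC effect of 0.49 (adjusted p = 0.0182), under the 1.5-fold limit. Tigit, another inhibitory receptor, had 0.78 (adjusted p = 0.0639). Other genes of the list went the other way. Without Control replicate 1, Areg (-0.66), Nt5e (-0.15) and Prdm1 (-0.07) lay below 0 in the ASC effect, and none of them was called. None of the 17 was called in the iAs effect.

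Of 10 other costimulatory receptors, 9 were tested and 1, Cd40, a receptor of antigen-presenting cells, rose in the ASC effect, by 0.86 (adjusted p = 0.0310). This call held in 2 of the 12 repeats that leave out 1 tumor (Control replicate 1 or ASC_As300 replicate 1). Cd28 (0.96, adjusted p = 0.254) and Cd27 (1.21, adjusted p = 0.284) had adjusted p = 0.0231 and 0.00789 without Control replicate 1, with ASC effects of 1.33 and 1.83. The share of all genes called in the ASC effect without that tumor is not given here. Tnfrsf25 (-0.36) and Tnfrsf8 (-0.20) lay below 0 in the ASC effect with all tumors, and neither was called. Of 16 genes that signal below the receptors, among them TRAF adaptors, NF-kB subunits, JAK kinases and STAT5, 0 were called in the ASC or the iAs effect. Their median ASC effect was 0.04, and 1 of 16 had an unadjusted p under 0.05.

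Some markers of other cells moved beside these values. In the ASC effect the called genes of the marker lists were Klre1 (of 8 NK cell genes), Fcgr1 and C1qb (of 10 macrophage genes) and Itgax (of 9 dendritic cell genes), all higher, and Krt8 (of 7 epithelial genes), lower. Uncalled genes below 0 were Mrc1 (-0.06) and Mertk (-0.09) of the macrophage list. In the dendritic cell list they were Zbtb46 (-0.19), Flt3 (-0.17) and Cd209a (-0.03). The remaining genes of both lists lay above 0 without a call. The macrophage sum was 1245 to 1754 CPM in ASC and 1305 to 1556 CPM in ASC_As300 tumors, against 831 to 1145 CPM in Control and 1160 to 1183 CPM in As300 tumors. C1qa and C1qc were called higher in ASC against Control and in ASC_As300 against Control. None of the B cell, endothelial, platelet, fibroblast, mast cell or skeletal muscle genes was called in the ASC effect. The part of these cells in the levels of Tnfrsf9, Tnfrsf4, Il10 and Lrrc32 was not tested.

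The genes whose levels followed Foxp3 most closely over the 12 tumors (Pearson r of log2 CPM) were A130071D04Rik (r = 0.916, Spearman's rho = 0.783), Pou5f2 (0.905, 0.923), Msln (0.9, 0.832), Jpx (0.9, 0.860) and Gm20089 (0.894, 0.907). Leaving out the 2 tumors farthest from the Foxp3 median, Control replicates 1 and 3, gave r = 0.834, 0.926, 0.808, 0.867 and 0.781 over 10 tumors. No other member and no T cell receptor gene was among these 5. The nearest gene to Il2ra was Xlr4b (r = 0.897), to Ikzf2 Pik3cd (0.959), to Tnfrsf4 Rgs19 (0.868), to Tnfrsf9 Mcoln1 (0.916), to Tnfrsf18 Abi3bp (0.944), to Ccr8 BC049352 (0.925), to Il10 Gm26682 (0.872), to Lrrc32 Hspbap1 (0.898) and to Icos N4bp2 (0.935). Without the 2 farthest tumors those of Ccr8 and Tnfrsf4 fell to 0.587 and 0.639. Each was picked as the largest correlation with any other tested gene, over tumors that share 4 groups, and are given as a description without a test.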

How the data were processed

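Tumor RNA was sequenced as paired-end, stranded poly(A) libraries. The deposited values are counts per Ensembl gene, whole numbers without normalization. The authors used cutadapt (1.1.0) for trimming, HISAT2 (2.0) for alignment to the mouse genome, StringTie (1.3.4) for assembly and quantification, and DESeq2 and edgeR for testing, with versions from the submitters' processing notes. How the counts were formed, the genome build and the annotation are not given in the sources used here. Total counts were 39157647 to 55168642 per tumor, and 33928 genes had a count.

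Genes were filtered with filterByExpr by group, scaled by TMM and fitted with 1 mean per group over all 12 tumors (R 4.3.3, edgeR 4.0.16, quasi-likelihood F test, Benjamini-Hochberg over 20818 genes; common dispersion 0.108). Intervals are 95%. Log2 CPM carries a prior count of 2. Alternatives were DESeq2 1.42.0 (Wald), its size factors in edgeR, other filters, no minimum fold, a replicate block, counts divided by 4, only the tumors compared, and each tumor left out. The exact permutation test was applied to Foxp3 ratios alone. Each replicate is the tumors of 1 mouse. The test scripts were tested on simulated data. Members and gene lists were chosen with earlier results of these data known. The text names all members and partner genes, the called genes of the other lists and some of their uncalled genes. It also names the genes nearest to each member by Pearson r.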

Additional observations from a re-analysis of the deposited data

Results flagged for a closer look

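Tgfb1 was picked out because its tumors lay apart in opposite directions with ASC at the 2 iAs levels. Every ASC tumor lay above every Control tumor (a log2 difference of 0.30, adjusted p = 0.137), a separation seen for 19.0% of all genes. Every ASC_As300 tumor lay below every As300 tumor (-0.32, adjusted p = 0.151), as for 19.7% of all genes. Neither difference reached 1.5-fold or was called. The interaction was -0.62 (SE 0.12) and did not pass the adjustment over all genes by edgeR's quasi-likelihood test (adjusted p = 0.309).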

How the results depend on the processing

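In all 8 comparisons 0 members were called, and the count stayed at 0 under every alternative with 1 exception: DESeq2's Wald test called 1 member (Icos) in As300 against Control. Leaving out each tumor gave 0 to 0 in each comparison. Replicate numbers did not pair the tumors (correlations of deviations between same-numbered tumors -0.124 to 0.172, 2 of 18 above 0.1), and with the replicate block 0 members were called in each comparison. The Foxp3 ratio to the T cell receptor complex kept its sign with ASC for Cd3e alone (-2.06), all T cell genes (-0.69) and Cd8a alone (-2.37), and reversed for Cd4 alone (0.24). Tumors with and without ASC overlapped for Cd3e alone, all T cell genes and Cd4 alone. The ratios to Cd8a and Cd4 were added after seeing the data. The cause was not tested. With each tumor left out, the ratio to the complex ran from -1.73 to -1.44. Its iAs difference ran from -0.037 to 0.25. Of 80 member differences (10 genes, 8 comparisons), 39 changed sign when at least 1 tumor was left out, and none of the 80 was called. Among them were Foxp3 in ASC against Control (-0.18 to 0.94), As300 against Control (-0.60 to 0.52; 0.52 by DESeq2 without Control replicate 1, a fit added after seeing the data), ASC_As300 against Control (-0.62 to 0.50), the ASC effect (-0.10 to 0.46) and the iAs effect (-0.52 to 0.040), the ASC effect of Il2ra (-0.14 to 0.36), and the iAs effects of Il10 (-0.26 to 0.15), Tnfrsf4 (-0.057 to 0.17), Lrrc32 (-0.10 to 0.056), Ccr8 (-0.28 to 0.64) and Ikzf2 (-0.39 to 0.069). The call of Ebi3 was lost with DESeq2 size factors, and those of Ebi3 and of Il2rb in ASC against Control without a filter and with the block. Over all genes, the number called in As300 against Control was 220, 816 by DESeq2, 8 without a filter, 0 without Control replicate 1 and 731 by DESeq2 without that tumor; the cause was not tested. Low counts limit Ccr8 and Il10 among the members, and ligand genes such as Tnfsf4.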
